A study of Mus musculus with 9 samples.

Results

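Notch receptors, ligands and target genes were examined in mammary tumours and normal mammary glands of mice. The set holds 10 genes, namely the receptors Notch1, Notch2, Notch3 and Notch4, the ligands Dll1, Jag1 and Jag2, and the target genes Hes1, Hey1 and Heyl. They were picked by name, as 10 of the 22180 genes that had a probe set with a single gene symbol, and a gene with several such probe sets was read from the one that was highest on average. All 10 lay among the 17478 genes tested after a filter on low values.

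Notch receptors are transmembrane proteins that are activated by ligands on a neighbouring cell. Ligand binding exposes the receptor to cleavage by ADAM10 and then by gamma-secretase, and the freed intracellular domain joins the DNA-binding protein RBPJ and a Mastermind coactivator to switch on target genes, among them the Hes and Hey repressors. In the mammary gland the pathway is known for a role in the choice between luminal and basal cell fates, and in blood vessels for the sorting of endothelial cells and the upkeep of mural cells.

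RNA from frozen tissue of 9 female FVB mice was hybridised to Mouse Gene 2.0 ST arrays, 1 array per mouse and 3 arrays per group. The metastatic tumours and the non-metastatic tumours came from MMTV-Wnt1 mice, genotype Wnt1+/-, in which a mammary tumour virus promoter active in mammary epithelium drives Wnt1, a secreted activator of beta-catenin signalling. The normal glands came from control littermates with wild-type Wnt1. All mice, controls included, drank 6% sucrose with doxycycline at 200 ug/ml from 6 weeks of age, and a tumour was collected once it measured 20 mm. Mice were 281 to 300 days old at collection in the metastatic group, 222 to 354 days in the non-metastatic group and 533 to 556 days in the normal group, so age and tumour status cannot be told apart in any comparison with normal gland. All values are log2 values deposited after RMA, a method that corrects background, equalises the arrays and combines the probes of a probe set. Levels of different genes were measured by different probes and were not set against each other.

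Wnt1 itself, the transgene, read 12.02, 11.20 and 12.04 in metastatic tumours 1 to 3, 12.40, 11.85 and 11.80 in non-metastatic tumours and 5.61, 5.45 and 5.71 in normal glands. Array medians lay between 5.80 and 5.94. Normal gland 2 stood apart, with a mean of 9.73 for skeletal muscle markers where the other 8 arrays lay between 5.83 and 7.90. Its mean was also high for epidermis markers (9.96, others 5.86 to 7.09) and low for luminal progenitor markers (8.42, others 9.91 to 11.01). The tissue was not sorted, so fewer cells of a type and less RNA per cell cannot be told apart in any result below. Adipocyte markers were lower in all 6 tumours (means of 6.50 to 7.94) than in the normal glands (11.06 to 12.06), and 11 of 11 of them fell over all tumours.

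The promoters of both Jagged ligands are shown because their windows hold a motif of the Hes repressors, and that of Hey2 because it holds sites of RBPJ. The target genes Hes1, Hey1 and Heyl had no RefSeq promoter window at hand and were not searched. Windows (GRCm38.p6, 250 bases before and 50 after the gene's start) were at hand for the other 7 of the 10 members, the receptors and ligands. The motif CACGCG, which Hes repressors can bind, was searched on both strands and lay in 4 of these 7 (Dll1, Jag1, Jag2 and Notch2), while 9.27% of all 32851 such windows held it, as did 11 of the 45 other pathway genes with a window. The N box CACNAG, a further Hes motif, lay in 4 of the 7 (Dll1, Notch1, Notch2 and Notch3) and in 42.48% of all windows, and the TCF/LEF core CTTTGA in 1 of the 7 (Jag1) and in 16.0%. The windows of the 2 Jagged ligands lie at chr2:137116471-137116770 (Jag1, minus strand, 2 sites) and chr12:112929446-112929745 (Jag2, minus strand, 1 site). The motif GTGGGAA, the preferred site of RBPJ, was in none of the 8 windows of these 7 receptors and ligands and in 6.38% of all windows. Of the 45 other pathway genes with a window 7 held GTGGGAA (Aph1a, Hes5, Hes7, Hey2, Lfng, Psen2 and Spen), not all of them target genes. Hey2 and Hes5, target genes outside the 10, each held 2 such sites, and 0.26% of all windows held 2 or more. The Hey2 window lies at chr10:30842734-30843033 (minus strand). The sequences run 5′ to 3′ on the gene's strand. Capitals mark CACGCG or its reverse complement CGCGTG in Jag1 and Jag2, and GTGGGAA or its reverse complement TTCCCAC in Hey2.
Jag1: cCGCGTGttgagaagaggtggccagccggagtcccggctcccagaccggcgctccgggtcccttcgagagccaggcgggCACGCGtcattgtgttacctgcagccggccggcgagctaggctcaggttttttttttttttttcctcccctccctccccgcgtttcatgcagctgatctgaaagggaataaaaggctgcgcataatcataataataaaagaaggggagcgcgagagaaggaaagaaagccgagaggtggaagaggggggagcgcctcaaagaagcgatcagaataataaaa
Jag2: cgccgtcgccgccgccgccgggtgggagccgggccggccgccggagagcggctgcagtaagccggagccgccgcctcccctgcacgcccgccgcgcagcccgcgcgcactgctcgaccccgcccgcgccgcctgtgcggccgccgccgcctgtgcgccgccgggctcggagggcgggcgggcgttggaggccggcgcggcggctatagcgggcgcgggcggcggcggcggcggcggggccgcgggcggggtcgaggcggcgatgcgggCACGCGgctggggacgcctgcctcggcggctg
Hey2: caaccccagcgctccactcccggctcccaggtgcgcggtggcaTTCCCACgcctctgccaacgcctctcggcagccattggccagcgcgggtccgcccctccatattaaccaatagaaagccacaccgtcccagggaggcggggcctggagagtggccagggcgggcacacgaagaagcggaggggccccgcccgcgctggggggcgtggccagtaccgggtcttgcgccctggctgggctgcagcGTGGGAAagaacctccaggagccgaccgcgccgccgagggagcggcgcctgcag
A match describes these letters only, and binding was not measured.

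The comparison of metastatic with non-metastatic tumours, which asks what differs with metastasis, found no Notch member past the threshold (limma, adjusted p under 0.05). Of the 10 members 0 passed, 0 had an unadjusted p under 0.05. Of all genes tested 0.00572% passed, and 5.07% had an unadjusted p under 0.05. The change was positive in 9 of 10 members with a median of 0.36, against -0.02 over all genes. That median was 0.14, with 7 of 10 positive, without non-metastatic tumour 1, and 0.65, with 10 of 10 positive, without non-metastatic tumour 3. In 1 of 10 members, Notch3, the groups did not overlap and the metastatic tumours were higher. The groups did not overlap in 10.3% of all genes, with metastatic tumours higher in 4.41%.

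**Figure D1:**
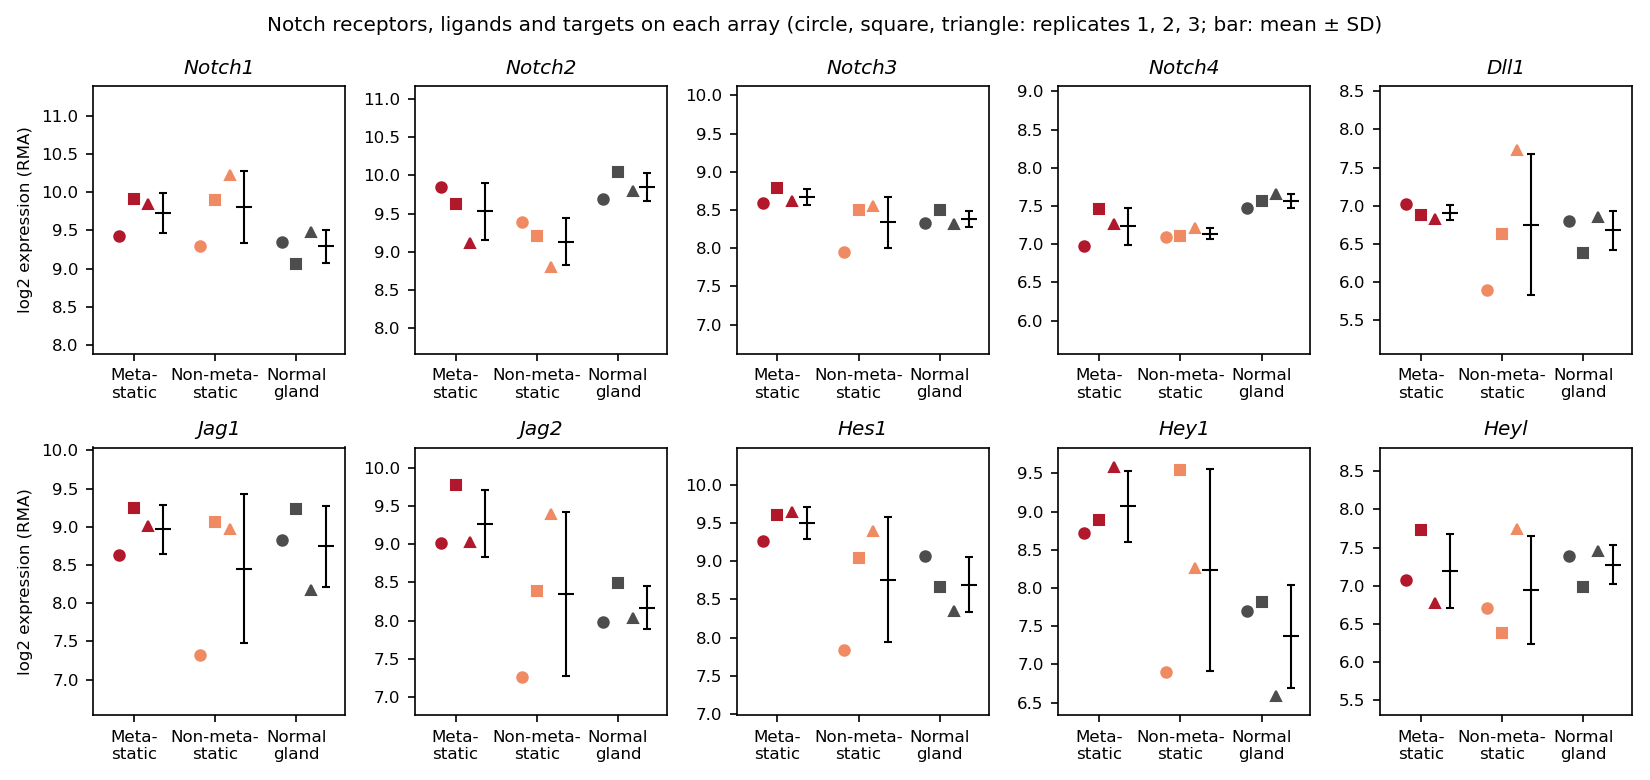
log2 value (y axis) of each of the 10 Notch members on each array, with metastatic tumours, non-metastatic tumours and normal glands from left to right; circles, squares and triangles are replicates 1, 2 and 3, and bars give their mean and SD. Non-metastatic tumour 1 is the lowest tumour in 7 of the 10 panels, and Notch4 is lower in all 6 tumours than in all 3 normal glands.

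Among the receptors, Notch4 gave the sole call of the 10 members in any of the 4 comparisons. Notch4 is a receptor of endothelial cells, and its gene is a known insertion site of the mouse mammary tumour virus. It read 6.98, 7.46 and 7.26 in metastatic tumours 1 to 3, 7.10, 7.10 and 7.22 in non-metastatic tumours and 7.47, 7.57 and 7.66 in normal glands. Every tumour lay below every normal gland, with metastatic tumour 2 close to normal gland 1, and the 2 tumour groups overlapped. Notch4 averaged 7.19 ± 0.17 in tumours (SD, n = 6) and 7.57 ± 0.095 in normal glands (SD, n = 3). It fell by 0.38 on the log2 scale over all tumours (SE 0.12, 95% interval -0.64 to -0.12, limma adjusted p = 0.048), or 1.30-fold. Of all genes 22.8% passed in that comparison, a larger share than 1 of 10 members, and 9.13% passed with a lower value. The groups did not overlap in 26% of all genes, with tumours lower in 10.3%. An unadjusted p under 0.05 was found in 3 of 10 members (Notch4, Notch2 and Hey1) and in 37.1% of all genes. The call was kept without metastatic tumour 2 and lost without each of the other 8 arrays, with an adjusted p of 0.030 to 0.13. With age at collection as a covariate the adjusted p was 0.98.

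Endothelial markers, among other lists, were also lower in the tumours. Of 15 endothelial genes measured 6 fell over all tumours, with a median of -0.90 over the 15. Among the 6, named by their change, were Tek, the angiopoietin receptor (-2.0), Kdr, the main VEGF receptor (-1.54), and Egfl7, a secreted vessel protein (-1.25). The rest of the 15 did not pass, and 9.13% of all genes passed with a lower value. The mean level of the 15 endothelial genes was 7.82, 8.60 and 7.90 in metastatic tumours, 7.53, 7.31 and 8.28 in non-metastatic tumours and 8.87, 9.09 and 8.69 in normal glands. Leukocyte and fibroblast marker means were likewise lower in every tumour than in every normal gland. They ran from 7.11 to 7.80 against 8.11 to 8.21 for leukocyte markers, and from 6.95 to 9.82 against 10.77 to 11.04 for fibroblast markers. The part of any of these lists in the Notch4 value was not tested. No endothelial marker was dim on all arrays.

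**Figure D2:**
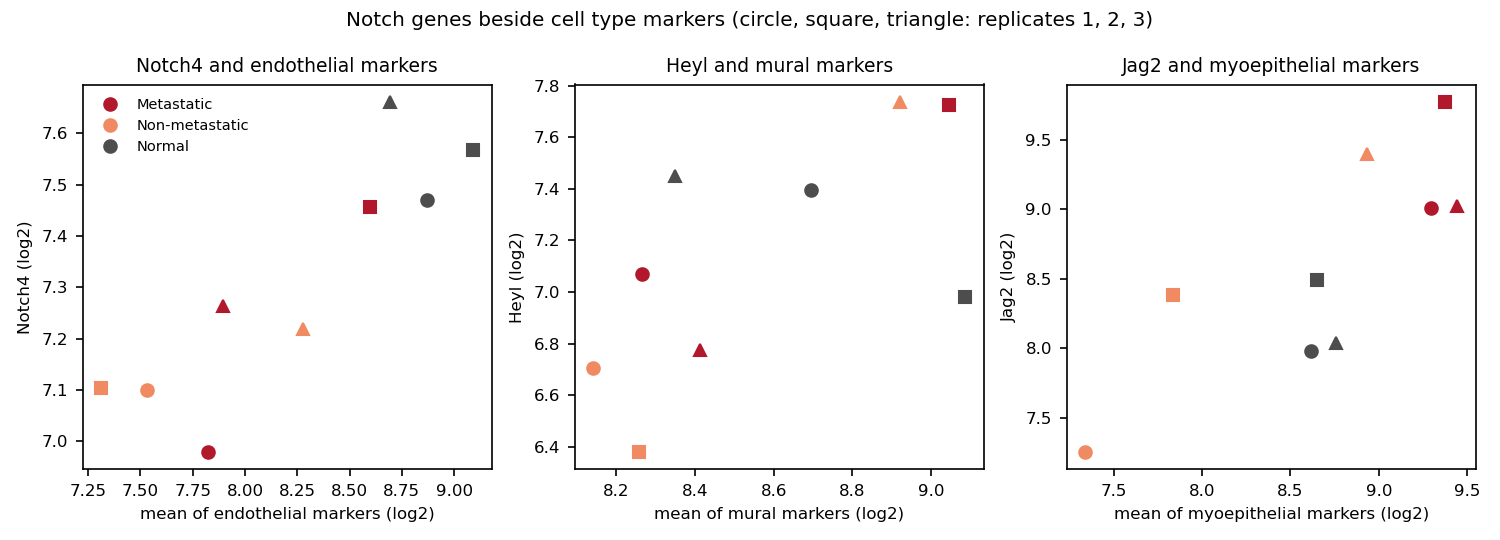
Mean log2 value of a marker list (x axis) and log2 value of a Notch member (y axis) on the 9 arrays, for Notch4 with endothelial, Heyl with mural and Jag2 with myoepithelial markers; colours are the groups, and circles, squares and triangles are replicates 1, 2 and 3. All 6 tumours lie below the 3 normal glands in both endothelial marker mean (7.31 to 8.60 against 8.69 to 9.09) and Notch4.

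Notch2, a receptor expressed in luminal mammary cells, read 9.85, 9.63 and 9.12 in metastatic tumours, 9.40, 9.21 and 8.80 in non-metastatic tumours and 9.69, 10.04 and 9.80 in normal glands. The non-metastatic tumours lay below all normal glands, whereas metastatic tumour 1 lay within their range. It averaged 9.53 ± 0.37, 9.13 ± 0.31 and 9.84 ± 0.18 in metastatic tumours, non-metastatic tumours and normal glands (SD, n = 3 each). Its change was -0.71 in non-metastatic tumours against normal glands (SE 0.22, limma adjusted p = 0.060) and -0.31 in metastatic tumours (adjusted p = 0.39). Between the tumour groups the change was 0.40, with a 95% interval of -0.12 to 0.91, and 0.23 without non-metastatic tumour 3.

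Notch1, a receptor of luminal progenitor cells, read 9.43, 9.91 and 9.85 in metastatic tumours, 9.29, 9.90 and 10.22 in non-metastatic tumours and 9.34, 9.06 and 9.48 in normal glands. Non-metastatic tumour 1 lay among the normal glands, and 4 tumours lay above all of them. Notch1 averaged 9.73 ± 0.26, 9.80 ± 0.47 and 9.29 ± 0.21 in metastatic tumours, non-metastatic tumours and normal glands (SD, n = 3 each). The change was 0.47 over all tumours (limma adjusted p = 0.15), and -0.07 between metastatic and non-metastatic tumours (95% interval -0.64 to 0.49). The last was -0.33 without non-metastatic tumour 1 and 0.14 without non-metastatic tumour 3. Without non-metastatic tumour 1, the lowest tumour for this gene, Notch1 passed in non-metastatic tumours against normal glands, at 0.77 (adjusted p = 0.048). Leaving out the lowest tumour raises the mean by construction, and the share of all genes called in that fit is not given.

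Notch3, a receptor of mural cells and luminal progenitors, read 8.59, 8.79 and 8.62 in metastatic tumours, 7.95, 8.50 and 8.56 in non-metastatic tumours and 8.33, 8.50 and 8.31 in normal glands. The metastatic tumours were above every array of both other groups, while non-metastatic tumour 1 was below them all. Notch3 averaged 8.67 ± 0.11, 8.34 ± 0.33 and 8.38 ± 0.10 in metastatic tumours, non-metastatic tumours and normal glands (SD, n = 3 each). The change between metastatic and non-metastatic tumours was 0.33 (SE 0.17, 95% interval -0.05 to 0.71, limma adjusted p = 0.88), and 0.14 without non-metastatic tumour 1, 0.41 without non-metastatic tumour 2 and 0.44 without non-metastatic tumour 3. Mural cell markers, which include pericyte genes, averaged 8.27, 9.05 and 8.41 in metastatic tumours, 8.14, 8.26 and 8.92 in non-metastatic tumours and 8.70, 9.09 and 8.35 in normal glands. Their part in the Notch3 value was not tested.

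Of the ligands, Jag2 had the largest change between the tumour groups. Jag2 is a transmembrane ligand of the Jagged class. It read 9.01, 9.77 and 9.03 in metastatic tumours, 7.26, 8.39 and 9.39 in non-metastatic tumours and 7.98, 8.49 and 8.04 in normal glands. All metastatic tumours lay above all normal glands, and the non-metastatic tumours spread from below the normal glands to within the metastatic range. Jag2 averaged 9.27 ± 0.44, 8.35 ± 1.07 and 8.17 ± 0.28 in metastatic tumours, non-metastatic tumours and normal glands (SD, n = 3 each). The change was 1.10 in metastatic tumours against normal glands (SE 0.49, limma adjusted p = 0.17), 0.18 in non-metastatic tumours against normal glands, and 0.92 between metastatic and non-metastatic tumours (SE 0.49, 95% interval -0.20 to 2.04, adjusted p = 0.88). The last change was 0.38 without non-metastatic tumour 1 and 1.45 without non-metastatic tumour 3.

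Jag1, a Jagged ligand that in several tissues is itself a target of Wnt signalling, read 8.63, 9.25 and 9.01 in metastatic tumours, 7.32, 9.06 and 8.97 in non-metastatic tumours and 8.83, 9.23 and 8.17 in normal glands. Non-metastatic tumour 1 was the lowest array by a wide gap, and the other 8 arrays overlapped across groups. Jag1 averaged 8.96 ± 0.31, 8.45 ± 0.98 and 8.74 ± 0.53 in metastatic tumours, non-metastatic tumours and normal glands (SD, n = 3 each), 3 means that differ by less than the spread of the non-metastatic group. The change between metastatic and non-metastatic tumours was 0.51 (95% interval -0.58 to 1.61) and -0.05 without that tumour, but 0.82 without non-metastatic tumour 2 and 0.77 without non-metastatic tumour 3.

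Dll1, a Delta-class ligand of basal mammary cells, read 7.03, 6.88 and 6.83 in metastatic tumours, 5.90, 6.63 and 7.73 in non-metastatic tumours and 6.81, 6.39 and 6.85 in normal glands. The non-metastatic tumours held both the lowest and the highest array, and the groups overlapped. A second Dll1 probe set read 5.82, 5.78 and 6.32 in metastatic tumours, 5.56, 5.54 and 6.09 in non-metastatic tumours and 5.58, 5.71 and 5.78 in normal glands, and there the highest array was metastatic tumour 3. On the first probe set Dll1 averaged 6.91 ± 0.10, 6.76 ± 0.92 and 6.68 ± 0.25 in metastatic tumours, non-metastatic tumours and normal glands (SD, n = 3 each), and the change between metastatic and non-metastatic tumours was 0.16 (95% interval -0.76 to 1.07). It was -0.27 without non-metastatic tumour 1, 0.09 without non-metastatic tumour 2 and 0.65 without non-metastatic tumour 3.

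Among the target genes, Hey1 had the largest change of the 10 members in metastatic tumours against normal glands. Hey1 is a repressor switched on by the receptors' intracellular domain. It read 8.72, 8.89 and 9.59 in metastatic tumours, 6.90, 9.54 and 8.26 in non-metastatic tumours and 7.70, 7.81 and 6.59 in normal glands. The metastatic tumours lay above all normal glands, and non-metastatic tumours 2 and 3 did too, but non-metastatic tumour 1 lay within the normal range. Hey1 averaged 9.07 ± 0.46, 8.23 ± 1.32 and 7.37 ± 0.68 in metastatic tumours, non-metastatic tumours and normal glands (SD, n = 3 each). The change was 1.70 in metastatic tumours against normal glands (SE 0.63, limma adjusted p = 0.11), 0.87 in non-metastatic tumours against normal glands (adjusted p = 0.38), and 0.83 between the tumour groups (95% interval -0.62 to 2.29). The last was 0.17 without non-metastatic tumour 1 and 1.49 without non-metastatic tumour 2.

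Hes1, a repressor that is among the best known direct Notch targets, read 9.26, 9.60 and 9.64 in metastatic tumours, 7.83, 9.05 and 9.39 in non-metastatic tumours and 9.06, 8.67 and 8.35 in normal glands. The metastatic tumours lay above all normal glands, and non-metastatic tumour 1 was the lowest array of the 9. Hes1 averaged 9.50 ± 0.21, 8.76 ± 0.82 and 8.69 ± 0.36 in metastatic tumours, non-metastatic tumours and normal glands (SD, n = 3 each). The change was 0.81 in metastatic tumours against normal glands (SE 0.38, limma adjusted p = 0.19) and 0.74 between the tumour groups (95% interval -0.13 to 1.61), or 0.28 without non-metastatic tumour 1 and 1.06 without non-metastatic tumour 3.

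Heyl, a Hey-family repressor of vascular smooth muscle, read 7.07, 7.72 and 6.77 in metastatic tumours, 6.71, 6.38 and 7.74 in non-metastatic tumours and 7.39, 6.98 and 7.45 in normal glands. The groups overlapped throughout. The 2 highest arrays, metastatic tumour 2 and non-metastatic tumour 3, were also the tumours with the highest mural marker means, 9.05 and 8.92. Normal gland 2 had the highest mural mean of all, 9.09, and the lowest Heyl value of the normal glands. The part of mural markers in the Heyl values was not tested. Heyl averaged 7.19 ± 0.49, 6.94 ± 0.71 and 7.28 ± 0.26 in metastatic tumours, non-metastatic tumours and normal glands (SD, n = 3 each). The change in metastatic tumours against normal glands was -0.09, and between the tumour groups 0.25 (95% interval -0.60 to 1.10). The last was 0.13 without non-metastatic tumour 1, -0.03 without non-metastatic tumour 2 and 0.65 without non-metastatic tumour 3.

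**Figure D3:**
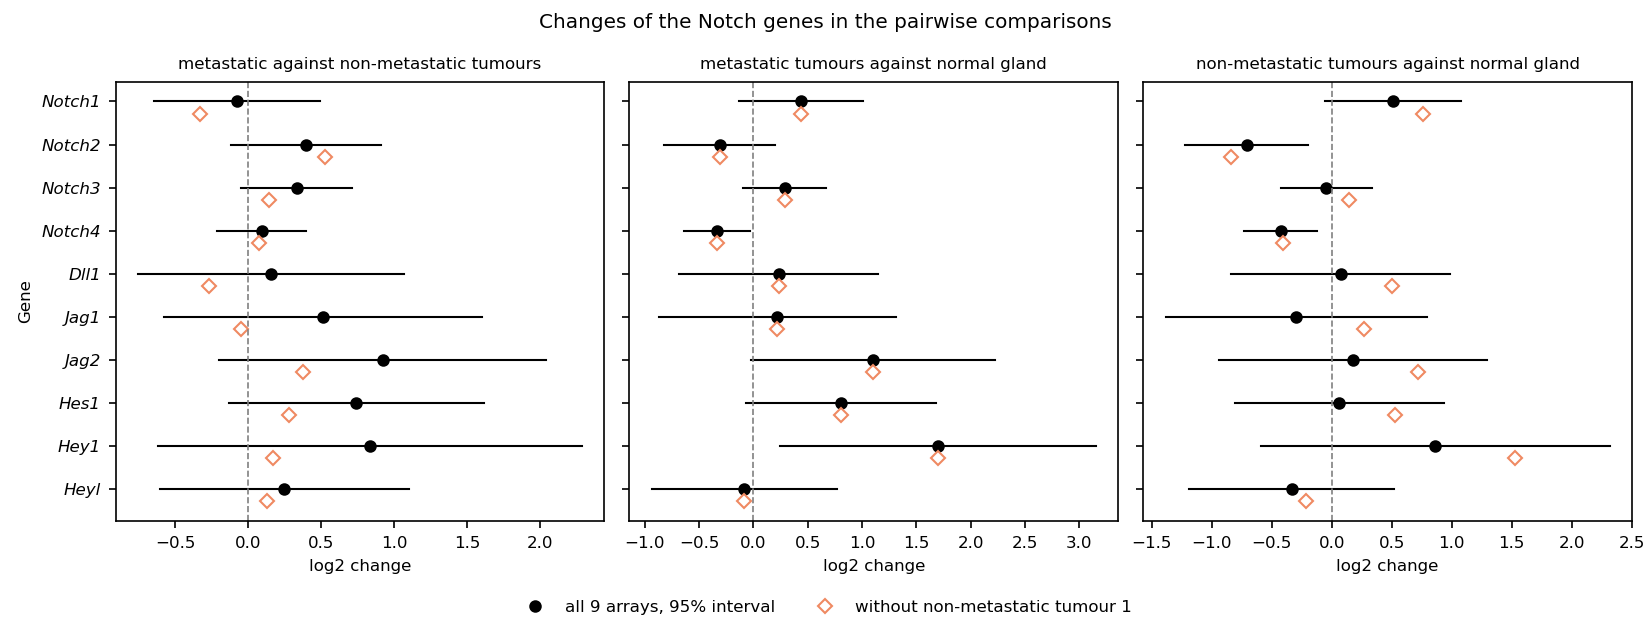
log2 change with its 95% interval (x axis) of the 10 Notch members (y axis) in the comparisons of metastatic with non-metastatic tumours and of each tumour group with normal gland, with open diamonds for the change without non-metastatic tumour 1. The intervals of all 10 members span 0 between the tumour groups, where changes run from -0.07 to 0.92.

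In metastatic tumours against normal glands 0 of 10 members passed (limma, 13.3% of all genes), and 2 of 10 had an unadjusted p under 0.05, Hey1 and Notch4 (30.5% of all genes). In 5 of 10 the groups did not overlap, with Jag2, Hes1, Hey1 and Notch3 higher and Notch4 lower in metastatic tumours, against 38.5% of all genes (23.2% higher, 15.3% lower). The median change was 0.26, against 0.04 over all genes. In non-metastatic tumours against normal glands 0 of 10 passed (18.8% of all genes), and 2 of 10 had an unadjusted p under 0.05, Notch2 and Notch4, with negative changes (34.4% of all genes). In these 2 the groups did not overlap, against 36.2% of all genes (14.3% with the non-metastatic tumours lower). Notch4 passed without metastatic tumour 1 (adjusted p = 0.041) or metastatic tumour 2 (0.049), Notch2 without metastatic tumour 3 (0.046). Leaving out a metastatic tumour does not move these changes, only the spread estimated over all arrays and the adjustment. The share of all genes called in those fits is not given, and the calls are not read as results about either gene. The median change was 0.01, against 0.05 over all genes, and it was 0.39 without non-metastatic tumour 1 (7 of 10 positive) and -0.38 without non-metastatic tumour 3 (8 of 10 negative). With age at collection as a covariate the median was -1.0 in non-metastatic tumours (9 of 10 negative) and -0.72 in metastatic tumours (8 of 10 negative) against normal glands. Hey1 was then at -3.79 (SE 1.33) in non-metastatic tumours and at -3.02 (SE 1.34) in metastatic tumours, and in metastatic tumours Hes1 was at -1.38 (SE 1.07) and Jag2 at -0.62 (SE 1.63). None of the 10 passed in that limma fit. Its age slope comes from age differences within groups, where the SD was 66 days in non-metastatic tumours, 10 in metastatic tumours and 12 in normal glands. The slope is carried over to normal glands of 533 to 556 days, older than every tumour mouse. Non-metastatic tumour 1, the oldest tumour mouse at 354 days, was the lowest tumour for Hey1, Hes1 and Jag2. The changes with age as a covariate are thus no separate evidence of a fall. These comparisons share the normal glands.

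The non-metastatic tumours spread widely in most members. Non-metastatic tumour 1 was the lowest of the 6 tumours in 7 of 10 members (Notch1, Notch3, Dll1, Jag1, Jag2, Hes1 and Hey1), as it was in 20.4% of all genes. It lay below the gene's own mean over the 9 arrays in 10 of 10 members, with a median deviation of -0.69. Metastatic tumour 2 lay above that mean in 10 of 10, with a median of 0.43, and was the highest tumour in 4 members (Notch3, Notch4, Jag1 and Jag2), as in 15.4% of all genes. The share of all genes below or above their own mean on these arrays was not counted. Whether these shifts are particular to the members was therefore not tested. The mouse of non-metastatic tumour 1 was the oldest of the 6 tumour mice, at 354 days.

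Myoepithelial markers were also low in that tumour. The mean of 11 of them was 9.29, 9.37 and 9.44 in metastatic tumours, 7.34, 7.84 and 8.93 in non-metastatic tumours and 8.62, 8.65 and 8.76 in normal glands. Luminal markers read 9.70, 9.27 and 10.02 in metastatic tumours, 8.96, 9.13 and 9.31 in non-metastatic tumours and 9.24, 8.59 and 8.99 in normal glands, and their part and that of the myoepithelial markers in the Notch values was not tested.

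**Figure D4:**
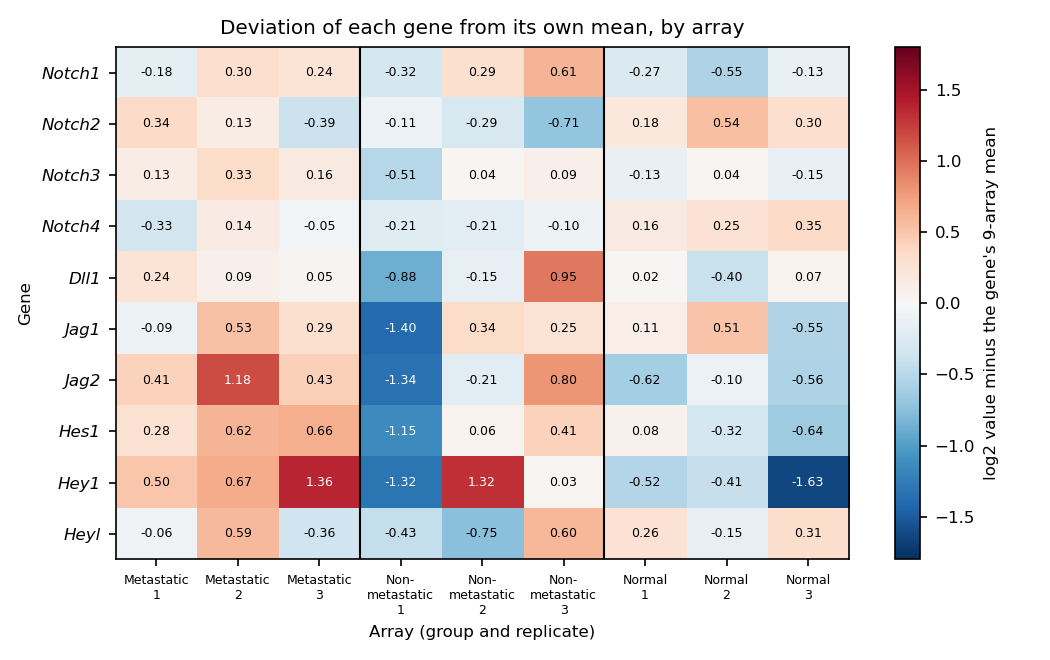
Deviation of each of the 10 Notch members (rows) from its own mean over 9 arrays (log2, colour and printed value) on each array (columns), with metastatic tumours, non-metastatic tumours and normal glands from left to right. The column of non-metastatic tumour 1 is below 0 in all 10 rows, from -0.11 in Notch2 to -1.40 in Jag1, and that of metastatic tumour 2 is above 0 in all 10. The share of all genes below or above 0 on these arrays was not counted.

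Non-metastatic tumour 1 was the lowest of the 6 tumours in Notch1, Hes1 and Hey1, so leaving it out raises their tumour means by construction. The calls below show how far the fit rests on that array and are no separate evidence of a rise. Without non-metastatic tumour 1, 3 of 10 members passed over all tumours against normal glands (22.3% of all genes, 13.4% higher), and all 3 had positive changes. These were Notch1 (0.60, adjusted p = 0.040), Hes1 (0.67, adjusted p = 0.046) and Hey1 (1.61, adjusted p = 0.033) by limma, where with all 9 arrays the changes were 0.47 (adjusted p = 0.15), 0.44 (adjusted p = 0.38) and 1.28 (adjusted p = 0.13). Notch4 did not pass without that tumour.

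The SD within the non-metastatic group ranked high among all genes for 6 of the members. Its percentile was 98.3 for Hey1, 97 for Jag2, 96.3 for Jag1, 95.8 for Dll1, 94.7 for Hes1 and 92.9 for Heyl. For Notch4 it was 12. Several members also ranked high within other groups, with Heyl at 91.3, Hey1 at 90.4 and Jag2 at 89.4 in metastatic tumours, and Hey1 at 94.1 and Jag1 at 90.1 in normal glands. Whether the spread differs between groups was not tested.

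The pattern over the 9 arrays was compared between genes as the root mean square of the differences between their deviations, in log2 units over 9 arrays. Jag1 and Hes1 were each other's nearest member, at 0.35, and Notch1 and Notch3 likewise at 0.30. Genes outside the set lay closer, the nearest at 0.27 for Jag1, 0.18 for Hes1, 0.14 for Notch1 and 0.086 for Notch3. The deviations of Notch3 itself had a root mean square of 0.23, less than its difference from Notch1. Those of Jag1, Hes1 and Notch1 had 0.58, 0.57 and 0.35. The genes closest to Notch4 were Gm5084 (0.077), Hhipl1 (0.083) and E330033B04Rik (0.089), where the deviations of Notch4 itself had a root mean square of 0.22.

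Of 53 other genes of the pathway 50 were measured and tested. None of them passed between metastatic and non-metastatic tumours (0 of 50 in limma, 1 with an unadjusted p under 0.05). Over all tumours against normal glands 15 of 50 passed (30% against 22.8% of all genes), 10 higher and 5 lower. Of the 17478 genes tested 3980 passed there, 1595 of them (9.13% of all genes) with a lower value. The counts were 9 of 50 in non-metastatic tumours (18% against 18.8%) and 7 of 50 in metastatic tumours (14% against 13.3%). The 9 became 3 without normal gland 1, normal gland 2 or non-metastatic tumour 2. The 7 became 3 without normal gland 1, normal gland 2, metastatic tumour 1 or metastatic tumour 3, 4 without metastatic tumour 2, and 12 without normal gland 3. Counts with an array left out are given without the share of all genes called in the same fit. They show only how calls move and are not read as results about these genes.

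The largest change in these 50 genes was in Mfng, Manic fringe, a glycosyltransferase that modifies the receptors' extracellular domain. Mfng read 6.77, 7.19 and 6.68 in metastatic tumours, 7.10, 6.54 and 7.13 in non-metastatic tumours and 8.85, 9.35 and 8.79 in normal glands. Every tumour was below every normal gland. Mfng fell by 2.10 over all tumours (SE 0.20, limma adjusted p = 0.0010). Lfng, Lunatic fringe, a related enzyme, had a change of 0.28 (adjusted p = 0.40).

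Genes that act on the receptors and their intracellular domain were among the 10 that rose over all tumours. Adam10, the protease of the first receptor cleavage after ligand binding, read 10.98, 10.88 and 11.17 in metastatic tumours, 10.89, 10.97 and 10.91 in non-metastatic tumours and 10.37, 10.28 and 10.39 in normal glands. Every tumour lay above every normal gland, and Adam10 rose by 0.62, while Maml3, a Mastermind coactivator, rose by 0.83. Also higher were Ep300, the acetyltransferase recruited by Mastermind (0.39), Mib1, the ubiquitin ligase that drives ligand endocytosis (0.45), and the negative regulators Fbxw7 (0.61), Itch (0.36) and Numb (0.40). Spen (0.34) and Sin3a (0.49), corepressors, and Hes6, an antagonist of Hes1 (0.30), completed the 10. Besides Mfng, the genes that fell were Numbl, a relative of Numb (-0.81), Neurl1a (-0.50) and Neurl1b (-0.34), ligases of the Neuralized family, and Psen2, a gamma-secretase subunit (-0.44). Adam10, Maml3 and Mfng passed over all tumours in all 9 fits with 1 array left out. The count of 15 was 4 without normal gland 1 and 3 without normal gland 2, and 0 genes of the array passed with age as a covariate, where Psen2, Spen, Mib1, Neurl1a, Numbl and Itch also turned their direction. Median centring gave 16 higher and 3 lower. Except for the age fit, these counts are given without the share of all genes called in the same fit. They show only how calls move and are not read as results about these genes. The age slope rests mainly on the non-metastatic tumours, whose ages spread widest.

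Of the further targets and ligands, Hey2, Nrarp, Dll4 and Hes5 passed in none of the 4 comparisons. Hey2, a Hey-family repressor, read 8.28, 7.32 and 9.48 in metastatic tumours, 7.07, 7.32 and 7.70 in non-metastatic tumours and 6.98, 7.02 and 6.22 in normal glands. All 6 tumours lay above all normal glands. The change was 1.12 over all tumours (SE 0.43, limma adjusted p = 0.099). Nrarp, a Notch-induced feedback inhibitor, read 8.34, 8.40 and 8.56 in metastatic tumours, 6.92, 7.89 and 8.39 in non-metastatic tumours and 7.36, 8.31 and 7.30 in normal glands, and was lowest of all in non-metastatic tumour 1. Its change was 0.70 between the tumour groups (95% interval -0.20 to 1.60), 0.29 without non-metastatic tumour 1 and 1.03 without non-metastatic tumour 3. Dll4, an endothelial ligand, read 7.33, 8.91 and 8.14 in metastatic tumours, 7.26, 7.51 and 7.76 in non-metastatic tumours and 7.88, 7.76 and 7.70 in normal glands, with the highest array in metastatic tumour 2. Rbpj and Hes5 had changes over all tumours of 0.29 (adjusted p = 0.16) and -0.22 (adjusted p = 0.14).

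**Figure D5:**
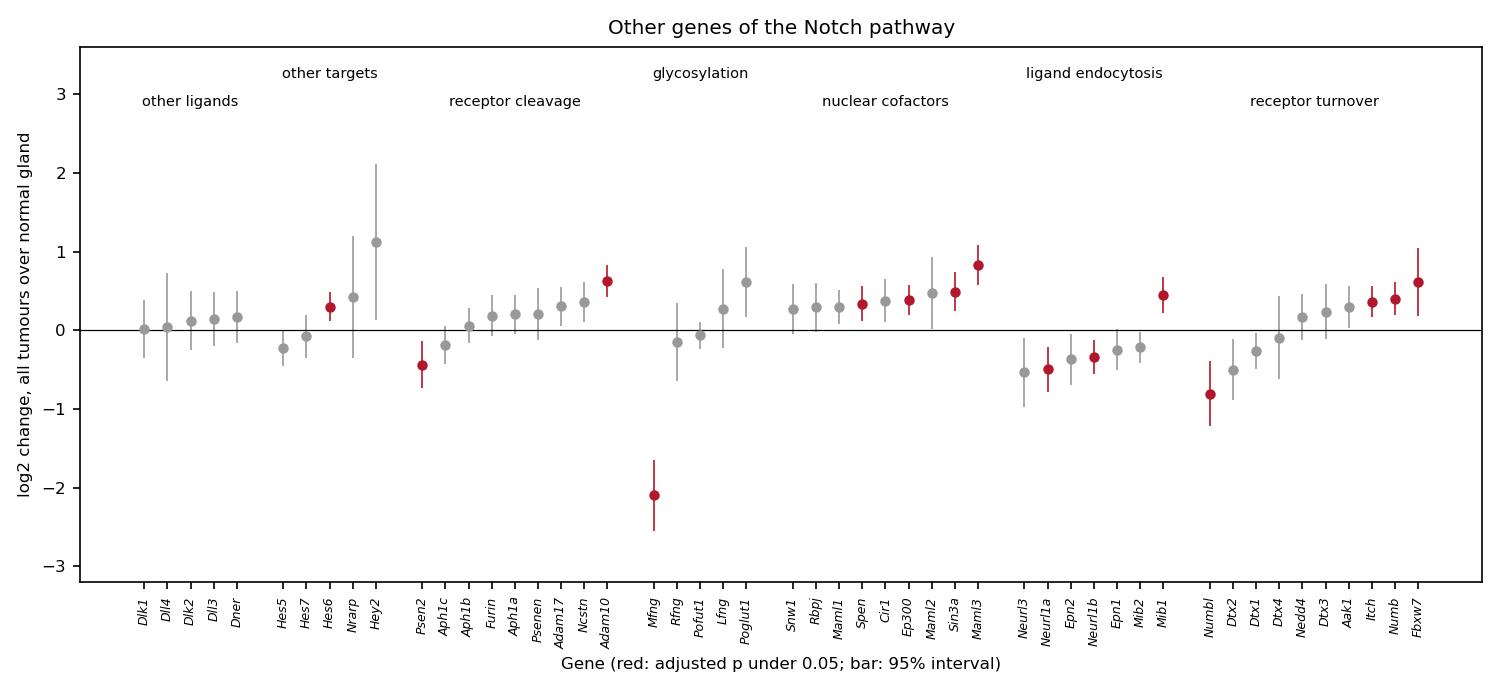
log2 change over all tumours against normal gland with its 95% interval (y axis) of the 50 other Notch pathway genes (x axis), grouped by role and in red where the adjusted p was under 0.05. Mfng lies lowest at -2.10, and the 10 genes in red above 0 run from 0.30 in Hes6 to 0.83 in Maml3.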

How the data were processed

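Total RNA from frozen mammary tissue was labelled and hybridised to Affymetrix Mouse Gene 2.0 ST arrays. The authors deposited 41345 probe sets on 9 arrays as log2 values made with RMA, per the submitters' processing notes. The RMA version, probe set level and genome build are not given in the sources used here. Scanner files and scan dates were not used here, so batches were not tested. Depth does not apply to arrays; the number of arrays sets the precision.

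A platform annotation gave 23521 probe sets a single symbol and 1814 several, while 16010 were not listed, and for genes with several probe sets (1082 of 22180) the highest mean was kept. The filter asked for a value over the 30th percentile of the array in 3 or more arrays (17478 genes). Groups came from the sample titles. Group means were estimated from the 9 arrays together with limma 3.58.1 (R 4.3.3, lmFit and eBayes, 6 residual degrees of freedom), with two-sided tests, Benjamini-Hochberg adjustment over all genes tested and a threshold of 0.05. The replicates are separate mice. Their numbers name different mice and were not taken as pairs.

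The members and all gene lists were chosen with earlier results of these data known. Named were the 10 members, pathway genes past the threshold, Dll4, Hes5, Hey2, Nrarp, Lfng, Rbpj and Wnt1 in every case, and the 3 nearest genes of a member that passed. Marker genes beside a result were named by their change. The fit was tested on simulated data. Alternatives covered filters, probe set choice, normalisation, eBayes options, array weights, block, age and arrays left out.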

Additional observations from a re-analysis of the deposited data

Results flagged for a closer look

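Non-metastatic tumour 1 stood far below the other 5 tumours in 3 of the 10 members, with a gap to the next tumour that took up more of the range than Dixon's 95% limit for 6 samples. Notch3 read 7.95 there, with a gap of 0.652 of the range, Jag1 read 7.32 (0.677) and Hes1 read 7.83 (0.671). Chance flags about 1 in 20 groups, and the 3 values come from a single array. This tumour also had the lowest myoepithelial marker mean of the 9 arrays, at 7.34, and the oldest tumour mouse, at 354 days. The part of either in the 3 values was not tested.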

How the results depend on the processing

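Counts in this section are given without the share of all genes called in the same fit. They show only how calls move with the settings and are not read as results about the genes. Between metastatic and non-metastatic tumours no member passed in any alternative run. For metastatic tumours against normal glands, where no member passed with all arrays, array weights gave 3 (Hey1, Jag2 and Notch3) and a fit of only the groups compared gave 2 (Hey1, adjusted p = 0.044, and Jag2, adjusted p = 0.045). For non-metastatic tumours quantile normalisation gave 1 member, Notch2, and leaving out 1 array gave 0 to 1. Over all tumours the single member became 0 with no filter, quantile normalisation, median centring, an intensity trend, the replicate block, age as a covariate, or without both normal gland 2 and non-metastatic tumour 1 (an alternative chosen after seeing the data), 3 with array weights, and 0 to 3 with 1 array left out. The Notch4 change stayed between -0.48 and -0.30 and was called in 5 of 20 alternatives. For the other pathway genes the 9 of non-metastatic tumours became 15 with median centring, 18 with array weights, 5 with the replicate block, 0 with age, 3 with only the groups compared, 2 without both arrays and 3 to 11 with 1 array left out. The 7 of metastatic tumours became 24 with array weights, 3 with the block, 0 with age, 4 without both arrays and 3 to 12 with 1 array left out. The 15 over all tumours became 30 with array weights, 8 with the block, 0 with age, 7 without both arrays and 3 to 15 with 1 array left out. The cause of these shifts was not tested. Residuals of same-numbered arrays in different groups correlated at -0.28 to 0.17, and those of differently numbered arrays at -0.27 to 0.26. Whether the samples of a block share more than a number was not tested. With age as a covariate 9 calls of other pathway genes turned their direction, none of them past the threshold there: in non-metastatic tumours Mib1 (-0.079), Neurl1a (0.40) and Numbl (0.060), and over all tumours Psen2 (0.029), Spen (-0.013), Mib1 (-0.14), Neurl1a (0.41), Numbl (0.15) and Itch (-0.10). No other alternative turned the direction of a call. Among the members, none called with age, the change over all tumours was negative in 9 of 10 with a median of -0.88, against 0.14 without the covariate. The age slope rests mainly on age differences among the non-metastatic tumours and is carried over to the older normal glands. With 3 arrays a group, the 95% interval of Hey1 between the tumour groups ran from -0.62 to 2.29, the widest of the 10 members.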

Other observations

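The gene nearest to Heyl over the 9 arrays was Mrc2, which encodes a collagen receptor of fibroblasts, at a root mean square difference of 0.13. Mrc2 was named after its value was seen, and the next were Pou2af1, a B cell coactivator (0.18), and P3h3, a collagen-modifying enzyme (0.21). Fibroblast markers averaged 9.28, 9.51 and 8.24 in metastatic tumours, 8.93, 6.95 and 9.82 in non-metastatic tumours and 11.01, 11.04 and 10.77 in normal glands. Among the tumours, Heyl and these markers were both high in non-metastatic tumour 3 and metastatic tumour 2. Both were lowest in non-metastatic tumour 2. The normal glands had the highest fibroblast means, yet their Heyl values of 7.39, 6.98 and 7.45 lay below those of non-metastatic tumour 3 (7.74) and metastatic tumour 2 (7.72). The part of fibroblast markers in the Heyl values was not tested.

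Among the deposited values, 13640 probe sets (33%) carry the same value to 6 decimals on 2 or more arrays, and 6764 (16.4%) on 3 or more. Among the 10 members this held for Notch3, which has 1 value in non-metastatic tumour 2 and normal gland 2. Among the 50 other pathway genes it held for 14, of which 5 (Dll3, Dlk1, Ncstn, Pofut1 and Dtx1) share a value on 3 or more arrays.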
